A study of Homo sapiens with 6 samples.

Results

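CXCR4, CSF1R, CD14, PIK3CG, HCLS1, ARHGAP30, GMFG, CORO1A, LAPTM5 and IKZF3, genes best known from leukocytes, were followed in MDA-MB-231, a triple-negative line of human breast cancer cells. They are 10 of the 29744 genes in the deposited counts, and most were chosen by their read counts, picked because these rise in the depleted lines, so their differences from control are given below as a description with no test. All 10 passed the filter on low counts, CXCR4, PIK3CG and IKZF3 through the depleted lines and GMFG through the shEZH2 line alone, where they are high. RNA was sequenced from 3 groups of 2 libraries. Control cells (WT shCntr) carried a nontargeting shRNA. The shEZH2 line (PARP1 KO shEZH2) had PARP1 knocked out and carried an shRNA to EZH2, and the shSUZ12 line (PARP1 KO shSUZ12) also had PARP1 knocked out, with an shRNA to SUZ12. All cells were MDA-MB-231 at passages given only as a range, grown for 2 days in serum-containing medium. PARP1 is an enzyme that builds poly(ADP-ribose) chains at damaged DNA, and EZH2 and SUZ12 belong to the complex PRC2, which methylates histone H3 on lysine 27. There were no cells with only the knockout or only 1 of the shRNAs, so the effects of the knockout and of either shRNA cannot be told apart. The labels do not say whether a line is 1 clone, or whether its libraries are of separate cultures; a p-value here speaks for the spread between the libraries alone, and that spread may be technical.

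Leukocytes move by sensing chemokines through receptors that couple to G proteins. The signal reaches phosphoinositide 3-kinases and other enzymes inside the cell, and these drive the branching of actin through the Arp2/3 complex. CXCR4 is the receptor for CXCL12 that holds blood stem cells in the bone marrow, and in breast cancer it has been studied for its part in spread to other organs. Genes of this kind are usually silent or low in epithelial cells, where PRC2 is among the systems known to keep lineage genes off.

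The stretch before the start site was compared because the 10 genes were followed together. Windows of 4 are shown, each the 250 bases before the RefSeq start on GRCh38.p14, read 5′ to 3′ on the strand of the gene, with CG pairs in capitals. CXCR4, HCLS1 and PIK3CG are shown because they had large ratios to control in both lines, and GMFG because it separated the lines. The windows lie at chr2:136118150-136118399 (minus strand, CXCR4), chr3:121660904-121661153 (minus, HCLS1), chr7:106865229-106865478 (plus, PIK3CG) and chr19:39336044-39336293 (minus, GMFG).
CXCR4: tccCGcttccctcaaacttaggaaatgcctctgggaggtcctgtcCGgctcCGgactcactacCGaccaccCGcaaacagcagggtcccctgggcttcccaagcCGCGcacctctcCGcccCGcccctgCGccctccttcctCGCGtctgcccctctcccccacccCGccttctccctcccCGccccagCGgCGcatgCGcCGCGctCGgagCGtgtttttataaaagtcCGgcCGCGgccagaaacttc
HCLS1: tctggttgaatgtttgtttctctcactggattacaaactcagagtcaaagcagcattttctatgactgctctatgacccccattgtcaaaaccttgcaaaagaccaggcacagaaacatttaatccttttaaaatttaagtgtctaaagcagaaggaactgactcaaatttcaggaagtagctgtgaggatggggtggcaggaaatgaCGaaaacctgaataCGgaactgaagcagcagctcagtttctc
PIK3CG: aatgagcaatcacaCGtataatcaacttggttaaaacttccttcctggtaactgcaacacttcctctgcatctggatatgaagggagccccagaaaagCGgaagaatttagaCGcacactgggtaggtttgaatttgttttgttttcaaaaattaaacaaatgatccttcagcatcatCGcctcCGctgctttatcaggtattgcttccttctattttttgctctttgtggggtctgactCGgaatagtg
GMFG: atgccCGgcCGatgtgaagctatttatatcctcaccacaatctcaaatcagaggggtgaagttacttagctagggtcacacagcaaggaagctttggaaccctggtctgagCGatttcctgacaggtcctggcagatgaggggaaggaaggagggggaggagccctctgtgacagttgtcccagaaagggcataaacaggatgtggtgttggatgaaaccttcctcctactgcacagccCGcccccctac

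CXCR4 had 24 CG pairs in its window and HCLS1 had 2. PIK3CG had 6 and GMFG had 4. Of the 10 genes, 9 had a RefSeq window, all but IKZF3. CORO1A had 23 CG pairs, CSF1R 6, CD14 5, and ARHGAP30 and LAPTM5 3 each. The windows of 10806 tested genes (76.1% of those tested) had a median of 21 CG pairs, with quartiles of 14 and 28. CXCR4 and CORO1A therefore lay near the middle, at percentiles 60.1 and 56.4, and the other 7 lay at percentiles 2.57 to 9.58. The CG-rich pair did not share a pattern of expression, since CXCR4 was far above control in both lines and CORO1A was not. The G and C content of the windows ran from 41.2% for HCLS1 and PIK3CG to 68.0% for CXCR4 and CORO1A, against a median of 64.8%. LAPTM5, with 64.8%, thus had few CG pairs at an average base composition.

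**Figure D1:**
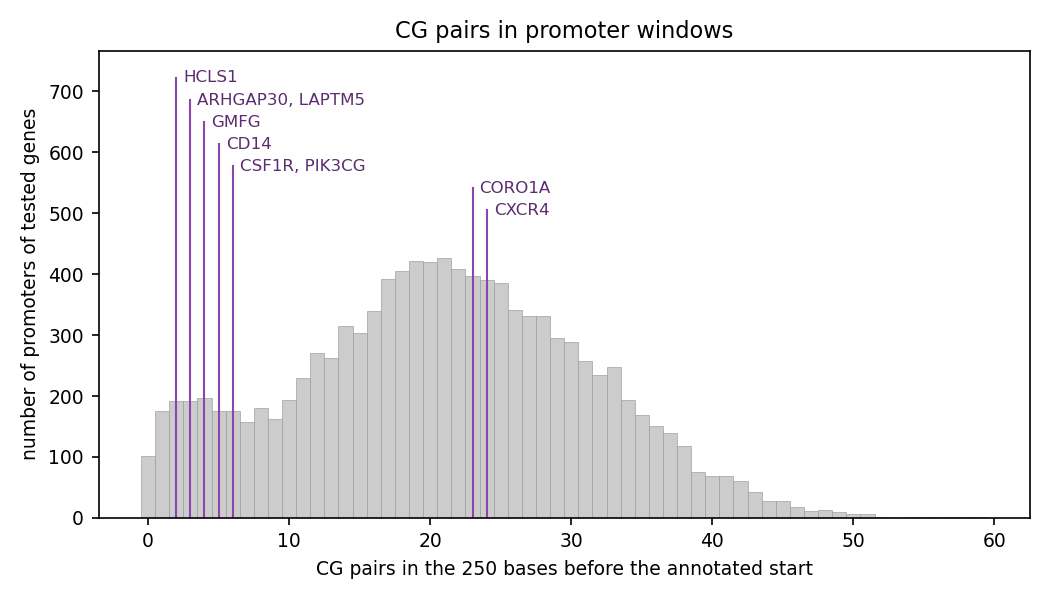
Number of CG pairs in the 250 bases before the annotated start (x axis) against the number of promoters of tested genes with that count (grey bars, y axis). Purple lines mark the 9 genes with a window; 7 stand at 6 CG pairs or fewer, and CORO1A and CXCR4 stand at 23 and 24, near the median of 21.

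Short motifs were searched in the same windows, with overlaps between motifs allowed. TATAAA, the TATA box, was searched on the gene's strand only and was found in CXCR4 alone, 30 bases before the start; 3.51% of the windows of tested genes hold it. The other motifs were searched on both strands. CGCATGCG, the core recognised by the factor NRF1, was also found in CXCR4 alone, at position -58 from the start (3.28% of windows). TGANTCA, an AP-1 site, was found in HCLS1, CD14 and CSF1R (4.01%). TGTGGT, a RUNX site, was found in ARHGAP30 and GMFG (7.63%). GAGGAA, an ETS site of the kind bound by PU.1, was found in CXCR4, PIK3CG, GMFG, CD14 and CORO1A (22.8%). GGGCGG, an SP1 site, was found in CXCR4, LAPTM5, GMFG, CSF1R and CORO1A (67.1%). CACGTG, the E-box, was found in 0 of the 9 windows (8.78%). These matches describe letters in the windows and were not tested against expression. In GENCODE version 29 (GRCh38) the outermost annotated start of GMFG lies upstream of the RefSeq start used here, beside the start of SAMD4B, so its window is 1 of several possible starts. The windows of CORO1A and CD14 also lie wholly inside the annotated gene, downstream of its outermost start, so the same limit holds for their CG pairs and motifs.

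Gene counts per library ranged from 20135270 to 22782742, so that 3 counts, taken as the floor, were worth 0.134 to 0.153 CPM (the usual CPM scale of read counts set relative to library size, adjusted by TMM, the trimmed mean of M values). Of the targeted genes, PARP1 was at 360.5 CPM or more in control and at 33.6 CPM or less in both lines. EZH2 was at 188 and 199 CPM in the control libraries and at 53.1 and 63.4 in the shEZH2 libraries. SUZ12 was at 70.3 and 76.0 in the shSUZ12 libraries against 133 and 134 CPM in the control libraries, and its shEZH2 libraries disagreed, at 130 and 53.1 CPM. The line's labelled identity was checked by markers. Both VIM and CD44 are high in this cell line. VIM was at 2941 to 5144 CPM. CD44 was at 905 and 723 CPM in the control libraries, 506 and 368 in the shEZH2 libraries and 401 and 404 in the shSUZ12 libraries. Its log2 fold changes of -0.90 ± 0.21 and -1.02 ± 0.22 were not called. ESR1 had 0 counts in every library, PGR was at most 0.360 CPM, and ERBB2 was at 56.0 to 75.7 CPM.

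Of 26 markers of T cells, B cells, NK cells, granulocytes, red cells and platelets that have counts, 15 were at 0 in every library. Their summed level was 0.585 and 0.760 CPM in the control libraries, 0.819 and 1.23 in the shEZH2 libraries and 0.357 and 1 in the shSUZ12 libraries. The highest single value was 0.511 CPM, for PF4 of platelets. Defining markers at 0 included all 5 of granulocytes and 4 of 5 of T cells. Among 8 markers of monocytes and macrophages, MARCO, VSIG4, AIF1 and FCGR3A were at 0 in every library, and CD163 had 1 count in all. CD68, a lysosomal protein also made outside that lineage, carried the sum at 78.2 to 113 CPM. MRC1 had at most 5 reads. LYZ had 3 and 6 reads in the control libraries, 4 and 11 in the shEZH2 libraries and 12 and 10 in the shSUZ12 libraries. Its log2 fold changes of 0.82 ± 0.72 and 1.26 ± 0.68 were not called. PTPRC, which encodes the CD45 antigen of nearly all white blood cells, was at 0.332 CPM or less in every library. Other genes best known from leukocytes were abundant in all groups, control included: ARHGDIB was at 279 to 469.5 CPM, RAC2 at 159.6 to 234 CPM, EVI2B at 35.3 to 47.9 CPM, DOCK2 at 23.3 to 40.7 CPM and LYN at 26.1 to 37.6 CPM. In RNA from bulk cultures like these, fewer cells that make a transcript and less of it per cell cannot be told apart.

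The receptors came first. CXCR4 (ENSG00000121966.6, chromosome 2, 136114349 to 136118165, minus strand, GRCh38) was at 0.225 and 0.0950 CPM in the control libraries, 5.45 and 5.87 in the shEZH2 libraries and 5.90 and 5.72 in the shSUZ12 libraries. The control values stand for 5 and 2 reads, close to the floor, and all 4 depleted libraries lay within a narrow band far above them. The ratio of counts to control was 35.0 (95% counting interval 16.7 to 87.9) in the shEZH2 line and 35.9 (17.2 to 90.3) in the shSUZ12 line. Its log2 fold changes of 5.08 and 5.12 ranked 25 and 21 from the top of 14192 genes. Without control replicate 1 they were 5.83 and 5.87, and without control replicate 2 they were 4.61 and 4.65.

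CSF1R (chromosome 5, 150053291 to 150113372, minus strand), the receptor tyrosine kinase through which CSF1 keeps macrophages alive, was at 2.97 and 4.37 CPM in the control libraries, 5.74 and 7.05 in the shEZH2 libraries and 6.12 and 6.96 in the shSUZ12 libraries. The depleted libraries were all above both controls, by a ratio of counts of 1.75 (1.43 to 2.14) and 1.79 (1.47 to 2.19). A pseudogene, RPL7P1, lies on the opposite strand within CSF1R, and the strand setting of the counting is not given in the sources used here. CD14 (chromosome 5, 140631728 to 140633701, minus strand) is the surface protein that hands bacterial lipopolysaccharide to TLR4. It was at 0.765 and 0.665 CPM in the control libraries, 2.02 and 4.50 in the shEZH2 libraries and 1.83 and 2.10 in the shSUZ12 libraries. Every depleted library exceeded both controls, and shEZH2 replicate 2 stood above the other 3.

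PIK3CG (chromosome 7, 106865278 to 106907145, plus strand) encodes the catalytic subunit of the phosphoinositide 3-kinase that G protein-coupled receptors switch on. It was at 0.675 and 0.285 CPM in the control libraries, 12 and 4.85 in the shEZH2 libraries and 8.89 and 8.34 in the shSUZ12 libraries. Its shEZH2 libraries lay on either side of the shSUZ12 libraries. The ratios of counts to control were 17.6 (11.3 to 28.8) and 17.8 (11.5 to 29.1).

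A set of 4 genes acts on actin or on signalling to it. HCLS1 (chromosome 3, 121631399 to 121660927, minus strand), a relative of cortactin that binds Arp2/3 in blood cells, was at 3.33 and 2.85 CPM in the control libraries, 57.8 and 59.6 in the shEZH2 libraries and 34.4 and 35.1 in the shSUZ12 libraries. Its replicates were close in every group and the 3 groups were ordered without overlap. The ratio to control was 18.9 (15.9 to 22.7) in the shEZH2 line and 11.2 (9.41 to 13.5) in the shSUZ12 line. ARHGAP30 (chromosome 1, 161046946 to 161069970, minus strand), a GTPase-activating protein, was at 7.20 and 8.74 CPM in the control libraries, 78.8 and 63.0 in the shEZH2 libraries and 47.4 and 43.9 in the shSUZ12 libraries. The order of the groups was that of HCLS1, with ratios of 8.95 (8 to 10) and 5.76 (5.13 to 6.47).

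GMFG (chromosome 19, 39328353 to 39342372, minus strand) encodes a protein that takes Arp2/3 branches off actin. It was at 0.405 and 0.142 CPM in the control libraries (9 and 3 reads), 9.54 and 8.32 in the shEZH2 libraries and 0.715 and 0.429 in the shSUZ12 libraries. The shSUZ12 libraries lay just above control and the shEZH2 libraries far above both. Its ratio to control was 32.3 (18.2 to 63.1) in the shEZH2 line against 2.08 (1.01 to 4.54) in the shSUZ12 line. The log2 fold changes of 4.99 and 1.04 became 5.94 and 1.99 without control replicate 1, and 4.44 and 0.49 without control replicate 2. CORO1A (chromosome 16, 30182827 to 30189076, plus strand), a coronin that binds actin in leukocytes, was at 2.66 CPM in both control libraries, 2.22 and 3.63 in the shEZH2 libraries and 1.30 and 1.53 in the shSUZ12 libraries. The shEZH2 libraries lay on either side of control, and the shSUZ12 libraries lay below it. CORO1A shares 1453 bases with AC012645.3, an antisense gene, and without the strand setting the reads of the pair cannot be told apart.

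The remaining members work in the lysosome and in the nucleus. LAPTM5 (chromosome 1, 30732469 to 30757820, minus strand), a lysosomal membrane protein that helps clear antigen receptors from lymphocytes, was at 133 and 121 CPM in the control libraries, 335 and 374 in the shEZH2 libraries and 263 and 255 in the shSUZ12 libraries. It was already abundant in control and was higher in all 4 depleted libraries, with ratios of 2.78 (2.70 to 2.87) and 2.04 (1.97 to 2.10). IKZF3 (chromosome 17, 39757715 to 39864188, minus strand) encodes Aiolos, a zinc-finger factor of lymphocytes. It was at 0.630 and 0.427 CPM in the control libraries, 18.3 and 7.92 in the shEZH2 libraries and 2.15 and 3.81 in the shSUZ12 libraries. The 3 groups did not overlap, and the replicates of each depleted line differed widely. A processed pseudogene, KRT8P34, lies within IKZF3.

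**Figure D2:**
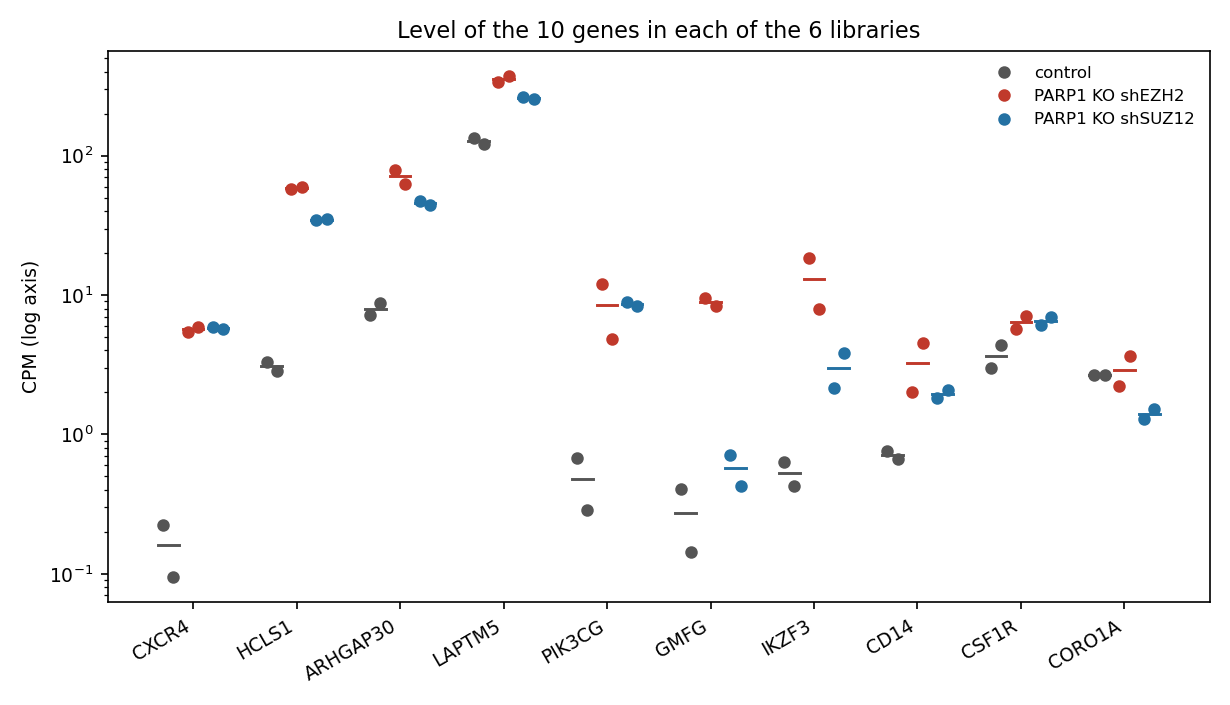
CPM of each of the 10 genes (log axis) in the control (grey), PARP1 KO shEZH2 (red) and PARP1 KO shSUZ12 (blue) libraries; points are libraries and bars are means of 2. CXCR4 goes from at most 0.225 CPM in the control libraries to between 5.45 and 5.90 CPM in the 4 depleted libraries, while GMFG is high in the shEZH2 line alone and CORO1A is not above control in the shSUZ12 line.

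In edgeR's fit, 8 of the 10 genes were called higher in the shEZH2 line and 5 of 10 in the shSUZ12 line. Over all 14192 genes, 3.54% were called higher and 3.2% lower in the shEZH2 line, and 0.719% higher and 0.888% lower in the shSUZ12 line. Since the genes were picked for their rise, nothing is read from those counts. The median log2 fold change of the 10 was 3.63 in the shEZH2 line and 1.96 in the shSUZ12 line. Both contrasts share the same 2 control libraries.

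Levels of different genes were compared per kilobase of the longest annotated transcript. In control, LAPTM5 was at 57.2 CPM per kb, the 90.2nd percentile of 12813 genes with a length. ARHGAP30 (1.81), HCLS1 (1.55) and CORO1A (1.47 CPM per kb) followed, and the ranges of neighbours in that order overlapped. CSF1R was at 0.920, CD14 at 0.379 and GMFG at 0.266 CPM per kb, of which the last overlapped in range with CD14. PIK3CG (0.0893), CXCR4 (0.0844) and IKZF3 (0.0540 CPM per kb) came last, with ranges that could not be separated. CXCR4 lay at percentile 1.87 in control and at 32.3 in the shEZH2 line (2.99 CPM per kb) and 30.6 in the shSUZ12 line (3.07 CPM per kb). HCLS1 moved from percentile 21.8 to 79.6 and 69.6, at 29.3 and 17.4 CPM per kb. GMFG, at percentile 6.80 in control, reached 53.6 in the shEZH2 line and 11.2 in the shSUZ12 line. In the shEZH2 line CD14, CORO1A, CSF1R, PIK3CG and IKZF3 lay between 1.34 and 1.73 CPM per kb, with overlapping ranges.

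The depleted lines were then compared with each other, a contrast that takes no difference from control. The fit held all 3 groups, so the control libraries still entered the filter and the estimate of spread behind its intervals and calls. GMFG was lower in the shSUZ12 line, by 15.5-fold in counts (8.93 ± 0.86 in the shEZH2 libraries against 0.572 ± 0.202 CPM, mean ± SD, n = 2). On the log2 scale it fell by 3.95 ± 0.43 (SE), 95% interval -4.94 to -2.95. GMFG passed the filter on low counts through the shEZH2 libraries alone, and the libraries of both lines entered the choice of the 10 genes, so this difference is a description and no p is given for it. edgeR called 1 of the 10 genes, GMFG, against 1.52% of all 14192 genes. DESeq2 called 3 of the 10, against 1304 of all 14192. Nothing is read from these calls, and that of GMFG did not hold under every alternative. Its log2 difference ran from -4.36 to -3.55 over the alternatives.

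The other genes split into those whose lines overlapped and those whose lines did not. HCLS1, ARHGAP30, LAPTM5, IKZF3 and CORO1A had lower values in both shSUZ12 libraries than in both shEZH2 libraries without passing the test. With GMFG these are 6 of 10, and 26.5% of all tested genes also had both shSUZ12 libraries under both shEZH2 libraries. The choice of the genes bears on these differences too, so no p is given for them. IKZF3 had a log2 difference of -2.14 ± 0.47 (95% interval -3.23 to -1.05). The differences were -1.05 ± 0.35 for CORO1A, -0.75 ± 0.19 for HCLS1, -0.63 ± 0.21 for ARHGAP30 and -0.45 ± 0.16 for LAPTM5. CD14 overlapped between the lines at -0.73 ± 0.42. CXCR4 differed by 0.04 (-0.62 to 0.69), CSF1R by 0.03 (-0.63 to 0.69) and PIK3CG by 0.03 (-1 to 1.06). Intervals of this width do not show that the lines are alike for these genes. In all, 7 of 10 estimates were below 0, with a median of -0.68. Over all genes the median was 0.04, and 52.7% of estimates were above 0.

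**Figure D3:**
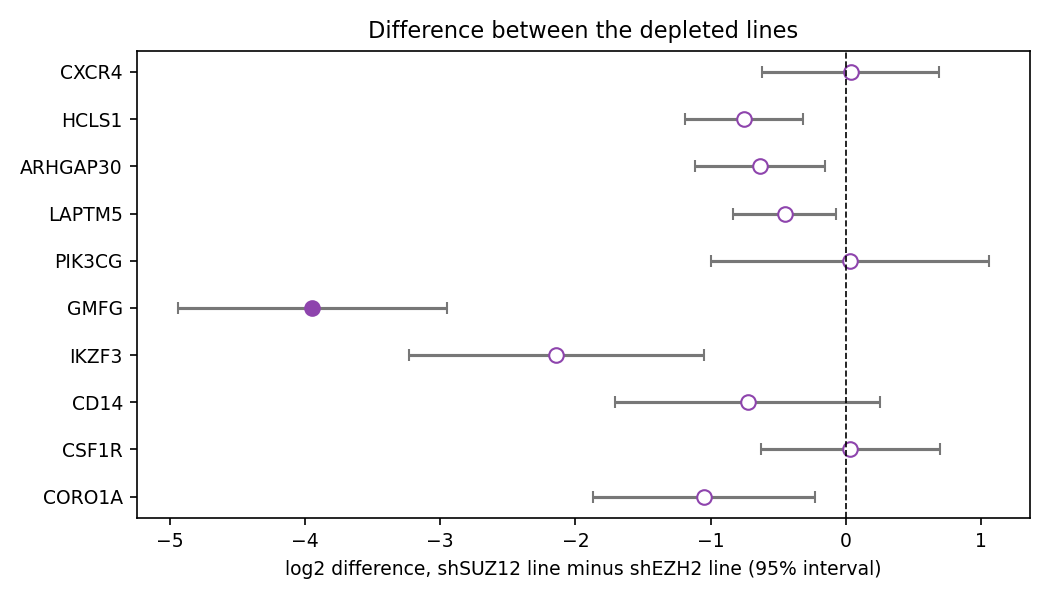
Log2 difference of the shSUZ12 line minus the shEZH2 line (x axis) for each gene, with 95% intervals from edgeR's fit; a filled point is called at an adjusted p under 0.05. GMFG, at -3.95, is the filled point, and its value is a description with no test. The intervals of CXCR4, PIK3CG, CSF1R and CD14 span 0.

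The shEZH2 replicates differed from each other in step with transcript length. Among tested genes the median log2 ratio of replicate 2 to replicate 1 was 0.54, 0.17, -0.21 and -0.64 over 4 equal bins of genes from the shortest to the longest transcripts, while it stayed between -0.04 and 0.04 in the control and shSUZ12 libraries. PIK3CG and IKZF3, in the longest bin, were at -1.29 and -1.20 on that scale, and CD14 and CORO1A, in the shortest, were at 1.12 and 0.69. CXCR4 (0.11), HCLS1 (0.04) and GMFG (-0.19), also short, differed little. Each library's trend with length was then removed, an alternative chosen after seeing the data. The difference between the lines became -2.45 for IKZF3 and -0.12 for PIK3CG, and 3 of the 10 genes were called. Of all 12813 genes in that fit, 1142 were called. With single libraries left out, calls of the 10 genes moved in the same direction as calls over all genes, so nothing is read from them. PIK3CG was higher in the shSUZ12 line by 0.83 without shEZH2 replicate 1 and stood at -0.51 without replicate 2.

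**Figure D4:**
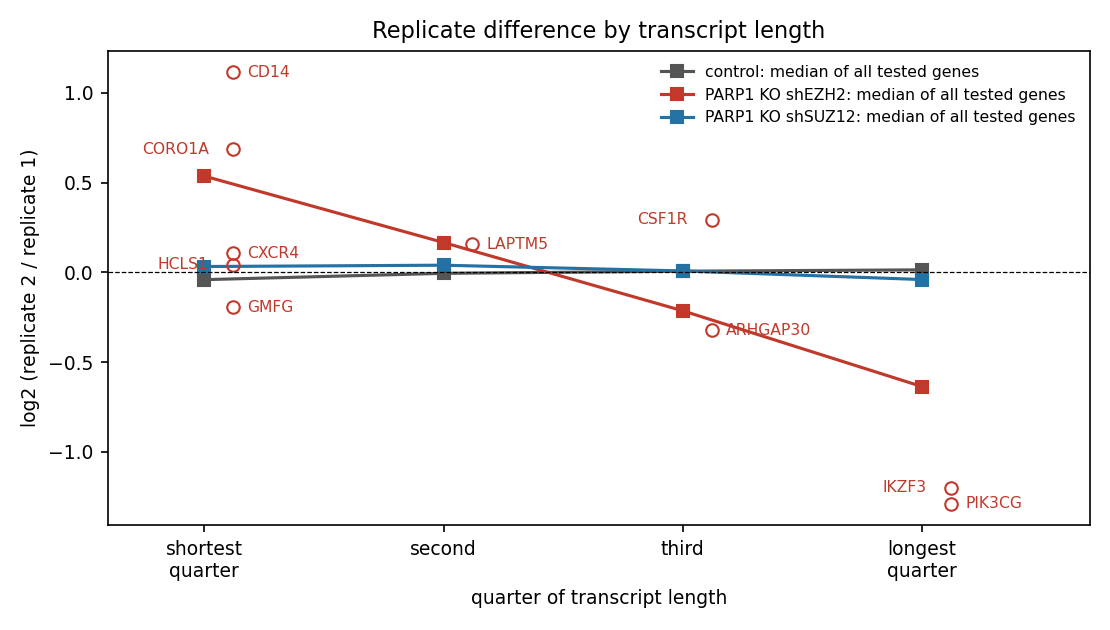
Log2 ratio of replicate 2 to replicate 1 (y axis) by bin of transcript length (x axis); squares are medians of all tested genes in each group, and open circles are the 10 genes in the PARP1 KO shEZH2 libraries. The red medians go from 0.54 to -0.64, and IKZF3 and PIK3CG, at -1.20 and -1.29, lie below the median of their bin.

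Genes around CXCR4 in its pathway were read from a list. Of 21 listed genes, 16 were tested; 1 rose and 15 did not pass the test in the shEZH2 line, and 1 rose, 1 fell and 14 did not pass in the shSUZ12 line. Over all genes 3.54% were called higher and 3.2% lower with shEZH2, against 0.719% and 0.888% with shSUZ12. The list medians were -0.25 and -0.14, against -0.01 and 0.00 over all genes. RGS16, which speeds up the shutting off of G proteins, was at 0.135 and 0.0475 CPM in the control libraries, 0.771 and 0.766 in the shEZH2 libraries and 2.46 and 1.67 in the shSUZ12 libraries. With 4 control reads in all its ratio was 8.32 (2.94 to 32.4) and 22.5 (8.47 to 84.2), and it rose by 2.98 ± 0.63 and 4.40 ± 0.57 (n = 2). RGS16 passed the filter on low counts through the depleted lines, where it is high, so no p is given for it. ARRB2, an arrestin that takes CXCR4 off the surface, fell by 1.34 ± 0.24 in the shSUZ12 line (edgeR adjusted p = 0.0444, Benjamini-Hochberg), from 18.7 and 22.6 to 8.62 and 7.72 CPM. Over the alternatives RGS16 ran from 2.45 to 3.88 and from 3.87 to 5.3 in turn, and ARRB2 from -1.45 to -1.20. None of these calls held under every alternative.

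The ligand CXCL12 had 0 counts in every library, which allows a level up to the floor of 3 counts. ACKR3, another receptor for CXCL12, had at most 1 count. MIF, another ligand, was listed at 0 throughout; as most cells make it, no level is read from that, and other genes at 0 are likewise only listed at 0. CD74, the MIF receptor chain, was at 133 and 119 CPM in the control libraries and 45.0 and 87.4 in the shEZH2 libraries. It did not pass the test there (log2 fold change -0.93 ± 0.30). NRF1, whose core motif stands in the CXCR4 window, was at 34.7 and 32.0 CPM in the control libraries and 27.8 to 30.3 CPM in the depleted lines, with log2 fold changes of -0.23 ± 0.19 and -0.19 ± 0.19. Of 18 other chemokine receptors, 8 had 0 counts in every library and 3 were tested. edgeR called 0 of them in any contrast (0, 1 and 1 at an unadjusted p under 0.05, and 0 by DESeq2). The most abundant were CCRL2, at 9.88 to 22.4 CPM, and CCR7, at 0.868 to 2.18 CPM.

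Close relatives of the 10 genes were read in the same way. Of 24 relatives, such as CTTN for HCLS1 and PIK3CA for PIK3CG, 20 were tested, and 1 rose in each line (3.54% and 0.719% of all genes). That gene was CORO2B, a coronin best known from brain, at 5.40 and 6.03 CPM in the control libraries, 12.8 and 11.3 in the shEZH2 libraries and 15.4 and 14.4 in the shSUZ12 libraries. It rose by 1.08 ± 0.22 and 1.38 ± 0.22 (edgeR adjusted p = 0.0320 and 0.0271, Benjamini-Hochberg). Without control replicates or with other settings its highest adjusted p was 0.248 and 0.361. GMFB, the widely expressed relative of GMFG, had log2 fold changes of -0.96 ± 0.31 and -0.07 ± 0.31, and CTTN of -0.21 ± 0.17 and -0.25 ± 0.17. The list medians were -0.21 and 0.24.

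Partners of the receptors and of PIK3CG were also read. Of 10 partners, 6 were tested. PIK3R5 and PIK3R6, the regulatory subunits that pair with PIK3CG, were listed at 0 in every library, the depleted lines included. In the shEZH2 line 1 partner fell (3.2% of all genes). This was TLR2, a receptor for bacterial lipoproteins that CD14 assists, at 5.04 and 5.46 CPM in the control libraries against 1.35 and 1.17 CPM, and it fell by 2.05 ± 0.31 (edgeR adjusted p = 0.0148, Benjamini-Hochberg; up to 0.145 over the alternatives). In the shSUZ12 line edgeR called 0 (1 at an unadjusted p under 0.05, 0 by DESeq2). CSF1, the ligand of CSF1R, was at 184 and 255 CPM in the control libraries, 262 and 320.5 in the shEZH2 libraries and 152 and 167 in the shSUZ12 libraries, with log2 fold changes of 0.41 ± 0.21 and -0.46 ± 0.21 that did not pass the test. HAX1, which binds HCLS1, was at 89.5 to 135 CPM.

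Other leukocyte genes passed the test in both directions. Of 43 genes of the leukocyte surface, cytoskeleton and signalling, 6 had 0 counts in every library and 20 were tested. In the shEZH2 line 1 fell and 19 did not pass the test, and in the shSUZ12 line 2 rose, 1 fell and 17 did not pass. Of all genes 3.54% were higher and 3.2% lower with shEZH2, and with shSUZ12 the shares were 0.719% and 0.888%. The list medians were 0.04 and 0.17. ITGB2, the shared chain of the leukocyte integrins, fell in both lines, from 43.0 and 35.1 CPM to 8.29 and 8.68 CPM and to 2.59 and 1.48 CPM. It fell by 2.20 ± 0.27 and by 4.25 ± 0.31 (edgeR adjusted p = 0.00848 and 0.00198, Benjamini-Hochberg), and the shSUZ12 line was the lower by 2.05 ± 0.30 on the log2 scale (edgeR adjusted p = 0.0309, Benjamini-Hochberg). Its fall in the shSUZ12 line was called under every alternative run (highest adjusted p 0.0478). LCP1, an actin-bundling protein of leukocytes that many tumour cells also make, was at 7.47 and 5.56 CPM in the control libraries and 41.0 and 30.9 in the shSUZ12 libraries and rose by 2.46 ± 0.28 (edgeR adjusted p = 0.0114, Benjamini-Hochberg). ARHGAP9, another GTPase-activating protein of blood cells, rose there by 2.60 ± 0.38 (edgeR adjusted p = 0.0217, Benjamini-Hochberg). In the shEZH2 line LCP1 and ARHGAP9 had log2 fold changes of 1.16 ± 0.28 and 1.49 ± 0.40 and did not pass.

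Transcription factors of blood lineages moved in single cases. Of 35 factors, 6 had 0 counts in every library and 16 were tested; 3 rose in the shEZH2 line, and 0 rose and 1 fell in the shSUZ12 line, beside 3.54% of all genes higher in the former and 0.888% lower in the latter. CEBPA, the factor that commits cells to the myeloid lineage, was at 0.900 and 0.902 CPM in the control libraries, 9.59 and 12.8 in the shEZH2 libraries and 0.179 and 0.0953 in the shSUZ12 libraries (4 and 2 reads). The difference between the lines was -6.28 ± 0.42 (edgeR adjusted p = 0.00460, Benjamini-Hochberg). With shSUZ12 CEBPA fell by 2.65 ± 0.49 on the log2 scale, whereas it rose by 3.63 ± 0.33 in the shEZH2 line (edgeR adjusted p = 0.0477 and 0.00373, Benjamini-Hochberg). BATF, an AP-1 factor of lymphocytes, rose there by 1.52 ± 0.25 (edgeR adjusted p = 0.0187, Benjamini-Hochberg). LMO2, a bridging protein of blood stem cell and red cell factors, was at 0.0900 and 0.570 CPM in the control libraries. It was at 2.51 and 3.78 CPM in the shEZH2 libraries and rose by 3.25 ± 0.62. In the shSUZ12 line LMO2 was at 3.17 and 2.53 CPM, and its log2 fold change of 3.11 ± 0.62 was not called. LMO2 passed the filter on low counts through the depleted lines, where it is high, so no p is given for it. Over the alternatives the log2 fold change of LMO2 in the shEZH2 line ran from 2.47 to 5.03. Markers of endothelium and of fibroblasts also held calls in the shEZH2 line. PECAM1 rose by 1.54 ± 0.36 (edgeR adjusted p = 0.0476, Benjamini-Hochberg). LUM rose by 2.27 ± 0.53 from 4 reads in each control library, and COL1A2 fell by 3.42 ± 0.72, to 2 and 1 reads. LUM passed the filter on low counts through the shEZH2 line alone and COL1A2 through control alone, so no p is given for either. CDH5 of endothelium was at 0 in every library, and DCN of fibroblasts had 1 count in all. Any part of such cells in the results above was not tested.

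**Figure D5:**
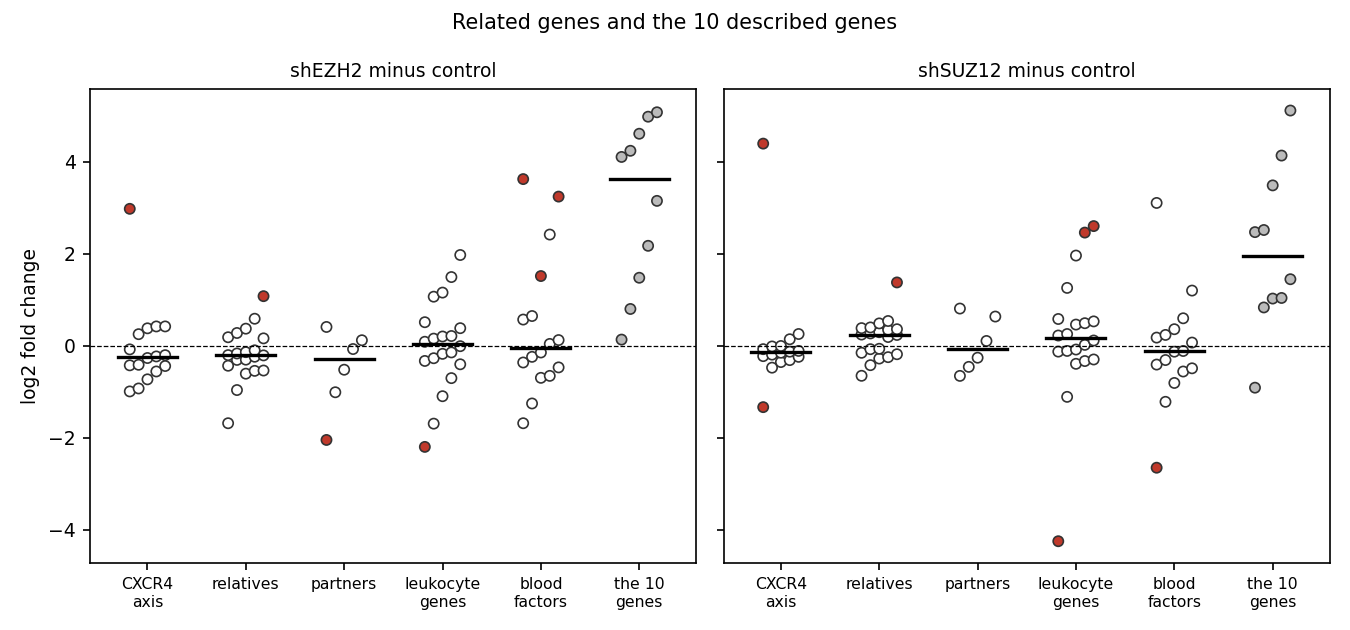
Log2 fold change against control of the tested genes of 5 lists (chemokine receptors, with 3 tested, are not drawn) and of the 10 genes, in the shEZH2 line (left) and the shSUZ12 line (right). Red points are called by edgeR at an adjusted p under 0.05, white points are not, grey points are the 10 genes, for which no test is given, and bars are medians; the medians of the 5 lists lie between -0.30 and 0.24.

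Most calls of single genes above were lost when a control or an shSUZ12 library was left out. The 3 contrasts gave 20 calls of listed or neighbouring genes. Of these, 1 passed when control replicate 1 was left out and 1 when control replicate 2 was, in each case the fall of ITGB2 in the shSUZ12 line. Without shSUZ12 replicate 1 or 2, 4 held, and without shEZH2 replicate 1 or 2 all 20 held. In these fits a group left with 1 library is assumed to vary like the others. With only the 2 groups compared 11 held, and DESeq2 called 19. None of the 20 changed direction under these settings, and estimates such as that of CEBPA in the shEZH2 line (3.44 to 3.82) and of CORO2B there (0.98 to 1.20) moved little, unlike that of LMO2 above.

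The nearest protein-coding genes on each side of the 10 genes were read next. Only genes that do not overlap the member and have a symbol in the deposited counts were considered, so a closer gene may have been passed over. Of these 20 neighbours, 14 were tested. In the shEZH2 line edgeR called 0 (2 at an unadjusted p under 0.05, 0 by DESeq2) and between the lines 0 (2 and 0). In the shSUZ12 line 1 fell. Of all genes 3.54% were called higher and 3.2% lower in the shEZH2 line, 0.888% were lower in the shSUZ12 line and 1.52% were called between the lines, so 0 or 1 of 14 is no result about neighbours. The gene that fell was THSD7B, 647380 bases from CXCR4, at 2.61 and 2.18 CPM in the control libraries and 0.313 and 0.191 in the shSUZ12 libraries. It fell by 3.22 ± 0.52, with log2 fold changes from -3.62 to -2.92 over the alternatives. THSD7B passed the filter on low counts mainly through control, where it is high, so no p is given for it. SAMD4B, 24 bases from GMFG on the opposite strand, had log2 fold changes of -0.09 ± 0.21 and 0.15 ± 0.21 and was at 74.0 to 109 CPM. GOLGB1, 2272 bases from HCLS1, stood at -0.11 ± 0.25 and 0.36 ± 0.25, and USF1, 969 bases from ARHGAP30, at 0.45 ± 0.23 and 0.28 ± 0.23. PDGFRB, a receptor kinase gene 465 bases from CSF1R, stood at 0.16 ± 0.34 and 0.40 ± 0.34.

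Genes with a pattern like that of CXCR4 were ranked by the root mean square difference of log2 CPM, relative to the control mean of each gene, over the 6 libraries and 13101 genes. The nearest were BEX5 (0.328), SPP1, which encodes osteopontin (0.417), MUM1L1 (0.479), TMEM108 (0.488) and SERPINB2, an inhibitor of plasminogen activators (0.516). All were at 0.142 CPM or less in both control libraries and at 1.29 CPM or more in all 4 depleted ones, and BEX5 and MUM1L1 had 0 control counts. Of the 10 genes PIK3CG and HCLS1 came next, at ranks 11 (0.667) and 12 (0.697). GMFG was at rank 83 and CSF1R at 565, and CORO1A alone among the members lay far down this order, at 11051. The measure was computed on all 6 libraries, so the likeness is a description with no test.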

How the data were processed

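RNA from 6 libraries of MDA-MB-231 cells was sequenced after column purification and a stranded poly(A) library kit, per the labels' protocols. The values are raw counts of reads for each gene symbol, as the authors deposited them, in a column for every library. GenomeStudio 2010.1, R 3.2.5, STAR and the build GRCh38 appear in the submitters' processing notes, which give no roles; which STAR version, annotation and strand setting were used is not given in the sources used here. Reads assigned to no gene (16.5 to 21.0% per library, multimapping ones 7.21 to 10.4%) were left out. No batch is named in the labels.

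Groups came from sample titles. Genes passing filterByExpr (14192 of 29744) were fitted in R 4.3.3 with edgeR 4.0.16 (robust quasi-likelihood, TMM, all 3 groups, 3 residual degrees of freedom). A gene was called when its adjusted p (Benjamini-Hochberg, all tested genes) was under 0.05. Standard errors follow from the F statistic and the estimate. limma 3.58.1 was loaded with edgeR. Counting intervals of ratios are exact, at 95%, and like the floor of 3 counts cover counting error only. The procedure was checked on simulated data. Alternatives were RLE size factors, no filter, only the groups compared, a block by replicate number, each library left out, DESeq2 1.42.0 and a correction for length (lowess, span 0.3) chosen after seeing the data.

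The 10 genes, the gene lists and the tests were chosen with earlier results of these data known. Named genes were these 10, the 5 genes nearest to CXCR4 in pattern (prior count 2), the nearest protein-coding neighbours, and for each list and contrast with control at most 2 called rises and 2 called falls, or the 2 most abundant members where none was called; PARP1, EZH2 and SUZ12 were added. Other genes named (CD74, NRF1, CSF1, HAX1, GMFB, CTTN, PIK3R5, PIK3R6, the ligands and single markers) were chosen after their values were seen. The lists overlap in IKZF1 and IKZF2, and PDGFRB is both a relative and a neighbour of CSF1R. Positions are those of GENCODE version 29 on GRCh38, lengths (90.3% of tested genes) those of the longest annotated transcript, and promoter windows those of RefSeq on GRCh38.p14. HBA1 and HBB were not analysed here.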

Additional observations from a re-analysis of the deposited data

Results flagged for a closer look

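ITGB2 and CEBPA differed between the depleted lines by a test of the difference itself (shSUZ12 minus shEZH2, edgeR, Benjamini-Hochberg, n = 2 per line). GMFG was picked out by the same fit, with a log2 difference of -3.95 and both shSUZ12 libraries under both shEZH2 libraries. As it was chosen with these libraries in view and passed the low-count filter through the shEZH2 line alone, its value is a description with no test. ITGB2 had a log2 difference of -2.05 (adjusted p = 0.0309 in edgeR) and was below control in all 4 depleted libraries. CEBPA had a log2 difference of -6.28 (adjusted p = 0.00460 in edgeR), with both shEZH2 libraries above control and both shSUZ12 libraries below it. Over the alternatives the highest adjusted p of the ITGB2 and CEBPA differences was 0.254 and 0.102 in turn, from edgeR or DESeq2, and the sign held in each.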

How the results depend on the processing

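Counts of called genes changed with the settings. Against 957 calls in the shEZH2 line, no filter gave 1471, the 2 groups alone 216, DESeq2 1976 and removing the length trend 2164, and leaving out 1 library gave 5 to 7853. Against 228 in the shSUZ12 line these were 399, 2876, 527 and 611, and 10 to 3044. Between the lines they were 718, 1, 1304 and 1142 against 216, and 0 to 7590. Of the 10 genes, 1 was called between the lines, against 2 with no filter, 0 with the 2 lines alone, 3 with DESeq2 and 3 with the length trend removed, and 0 to 8 with 1 library left out. The causes were not tested.

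Estimates near 0 changed sign. CORO1A in the shEZH2 line was at -0.15 with the length trend removed and from -0.23 to 0.44 with 1 library left out. Between the lines PIK3CG was at -0.12 and from -0.51 to 0.83, CSF1R at -0.075 and from -0.11 to 0.16, and CXCR4 from -0.016 to 0.061 with 1 library left out. GMFG in the shSUZ12 line has no value with the 2 groups alone, where it failed the filter.

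Replicate numbers are shared between groups in the labels and nothing says that they pair libraries. Deviations of same-numbered libraries correlated at 0.116 (control with shEZH2), 0.0930 (control with shSUZ12) and 0.165 (shEZH2 with shSUZ12) over 14192 genes. With a replicate block, edgeR called 1233 genes in the shEZH2 line, 328 in the shSUZ12 line and 368 between the lines, and still 1 of the 10 genes. CXCR4, PIK3CG and GMFG rest on 7 to 21 control reads in all, which limits their ratios to control.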
